A study of Trametes coccinea with 18 samples.

Results

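The white-rot fungus Pycnoporus coccineus CIRM-BRFM 310 (Pycco 310) was compared between cultures on aspen wood and cultures on Avicel, a microcrystalline cellulose. Members of the comparison were the libraries that the sample labels assign to these media, 3 for aspen and 3 for Avicel, out of 18 in the series. Aspen, a hardwood, offers cellulose embedded in lignin, xylan, mannan and pectin, whereas Avicel offers cellulose alone, so the contrast asks which transcripts differ between these substrates. Both were given at the same weight per volume, so the amount and form of cellulose differ as well. These cannot be told apart from the presence of the other polymers. RNA was taken on day 3 from independent liquid cultures of this strain. The labels give 15 g/l of ground aspen or of Avicel, each together with 2.5 g/l of maltose, so both groups held a simple sugar as well; the methods of the study name the substrates as sole carbon sources. Pine and wheat straw cultures, prepared with the same amounts, and maltose cultures with 20 g/l of maltose and no polymer, 3 libraries each, are used below as further points of reference.

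White-rot fungi break down all polymers of wood. Class II heme peroxidases (family AA2 of the auxiliary activities) oxidize lignin with hydrogen peroxide, which copper radical oxidases (AA5_1) and flavin-dependent GMC oxidoreductases (AA3) can supply. Cellulose is cut by cellobiohydrolases and endoglucanases, often carrying a cellulose-binding module (CBM1), and by lytic polysaccharide monooxygenases (AA9), for which cellobiose dehydrogenase (AA8-AA3_1) can provide electrons. Xylan and mannan are depolymerized by backbone hydrolases together with side-chain hydrolases and esterases, and pectin by polygalacturonases and rhamnosidases. Small aromatic compounds released from lignin enter the cell, where cytochrome P450 monooxygenases, reductases and ring-cleaving dioxygenases act on them.

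Total counts on gene models were 32699904 to 33947846 in the aspen libraries and 31384096 to 35337024 in the Avicel libraries. Over log2 CPM, replicates correlated with r between 0.979 and 0.990 on aspen and between 0.971 and 0.984 on Avicel, while libraries of different groups correlated with r between 0.895 and 0.918. No library was left out. Levels are given as normalized read counts, that is, counts divided by a size factor per library, which allow comparison of 1 gene between libraries but not of different genes, because longer transcripts collect more reads. RPKM, per length and per library total, are used where genes are compared with each other. All values are relative to the other transcripts of the same culture, so that a larger share of a transcript cannot be told apart from a loss of the others, nor from a different amount of mycelium.

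Of 11112 genes tested, 1670 were up-regulated on aspen relative to Avicel and 1146 were down-regulated (edgeR quasi-likelihood test; a call required a Benjamini-Hochberg adjusted p below 0.05 together with a log2 fold change beyond 1 in either direction). These are 15.0% and 10.3% of the genes tested, or 25.3% in either direction. The rises were the larger changes. The median log2 fold change was 1.67 among the up-regulated genes and -1.37 among the down-regulated genes; 232 genes rose by more than 3 log2 units and 66 fell by as much, and beyond 5 log2 units the counts were 54 and 7. The split between rises and falls depended on the scaling. TMM factors, which left the median of all genes at -0.03, gave 59.3% rises among the calls, whereas library totals alone, an alternative chosen after seeing the data, placed the median of all genes at -0.33 and gave 1158 up-regulated and 2084 down-regulated genes, 35.7% rises. Fold changes below are on the TMM scale and therefore relative to that median, and the position of the wall enzymes among all genes is shown in the plot of fold change against level.

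**Figure D1:**
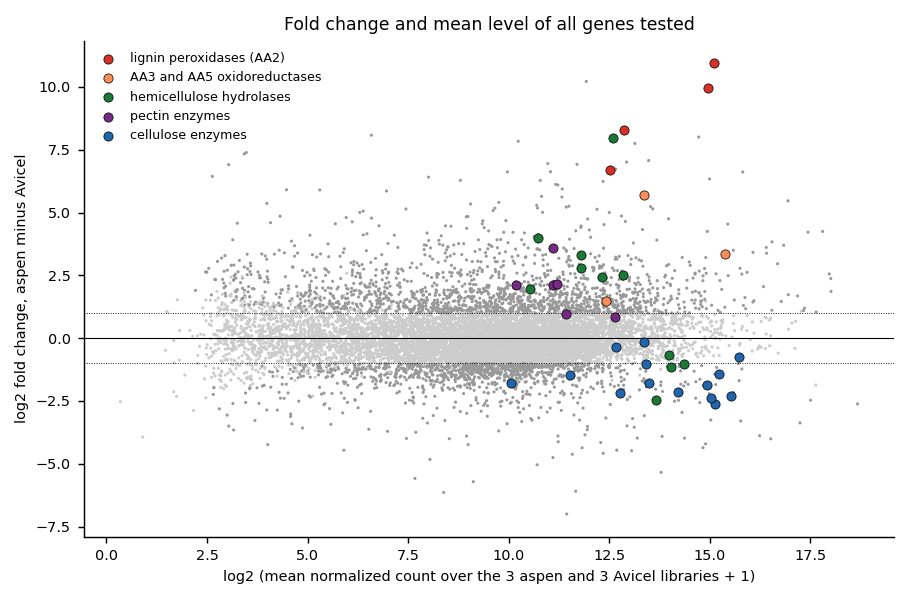
Fold change of each of the 11112 genes tested (y axis, log2, aspen minus Avicel) against its mean level over the 3 aspen and 3 Avicel libraries (x axis, log2 of the normalized read count with 1 added). Dark grey points were called, light grey points were not, dotted lines mark a log2 fold change of 1 and -1, and colored points are wall enzyme genes: the 4 AA2 peroxidases lie between 6.69 and 10.94, while the 14 cellulose enzymes lie between -2.62 and -0.17.

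The wall enzyme genes described here are the 44 genes of the relevant CAZy families (carbohydrate-active enzymes) that the supplementary tables of the study annotate. These tables were drawn up on the same libraries. Of the 44, 22 stand in lists of genes highly transcribed on a plant substrate but not on Avicel or maltose, which the study also filtered by a test against these media, and their direction is partly set by that choice: 19 of the 22 rose, 2 fell and 1 was not called. The other 22 come only from clusters rich in secreted proteins, of which 1 rose, 12 fell and 9 were not called. The study formed these clusters from transcription levels on the same media, Avicel included. Members of a cluster thus tend to share a direction. The counts below are thus a description of annotated genes and not independent evidence of direction.

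The largest rise among the genes named here was that of a lignin-oxidizing peroxidase. All 4 AA2 genes were up-regulated on aspen, against 15.0% of all genes, with a median log2 fold change of 9.12 against -0.03 over all genes tested. These 4 genes are all from the study's lists for plant substrates, so that a bias toward rises is built in. Together the 4 genes took 0.331 to 0.602% of the counts of an aspen library and 0.00069 to 0.00102% of those of an Avicel library. The gene 1431101 had 64254, 97521 and 48061 normalized read counts on aspen, against 25.7, 32.7 and 46.4 on Avicel. Every aspen library was thus more than 3 orders of magnitude above every Avicel library (log2 fold change 10.94, SE 0.57, adjusted p = 3.39e-09). For 1468611 the values were 53827, 87847 and 47547 normalized read counts on aspen, against 71.6, 36.0 and 77.3 on Avicel, again far apart (log2 fold change 9.97, SE 0.66, adjusted p = 2.9e-08). For 1464049, the 3 aspen libraries lay close together, with 14264, 13654 and 16764 normalized read counts on aspen, against 51.5, 47.4 and 42.5 on Avicel (log2 fold change 8.27, SE 0.39, adjusted p = 2.28e-09). The smallest change of the family belonged to 1436321, with 8928, 16999 and 8634 normalized read counts on aspen, against 134, 82.6 and 112 on Avicel (log2 fold change 6.69, SE 0.68, adjusted p = 1.98e-06). Per length, 1468611 and 1431101 were the most abundant of the 4 on aspen, with 1594 ± 562 and 1492 ± 551 RPKM (mean ± SD, n = 3), ahead of 1464049 with 374 ± 38.0 and 1436321 with 251 ± 105. The order of the first pair was within the spread of the replicates. On Avicel all 4 were between 0.923 and 2.98 RPKM on average. On maltose the mean normalized read counts were 34.1 for 1431101, 50.9 for 1468611, 101 for 1464049 and 91.1 for 1436321.

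In the public annotation of the Pycco1 assembly, 1464049 and 1431101 are adjacent loci, 1501 bases apart. The genes on either side of the pair, 1382876 and 1403742, were not called, with log2 fold changes of 0.07 and 0.26. The neighbors of the other AA2 genes did not rise either: 1391815, 82 bases from 1468611, fell by 2.55 on the log2 scale (edgeR adjusted p = 2.3e-07), and 1436364 on its other side had a log2 fold change of -0.29. How reads that match several genes were counted is not given in the sources used here, so that reads could in part be split among similar peroxidase genes. In addition, 1436321 overlaps the gene 507860 by 454 bases, and reads of the overlap cannot be told apart without strand information; 507860 itself stood at a mean of 59.0 normalized read counts on aspen and 51.7 on Avicel.

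**Figure D2:**
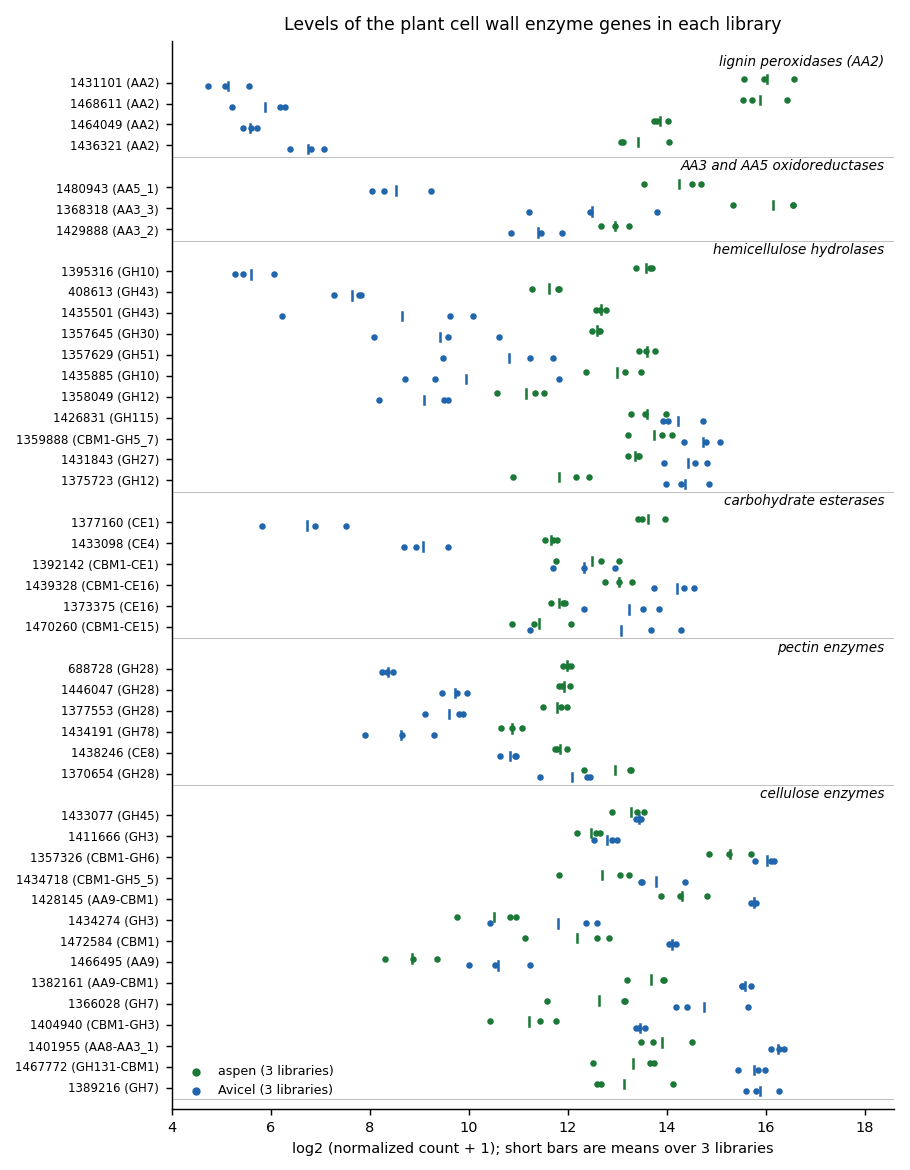
Level of the 44 wall enzyme genes in each library (x axis, log2 of the normalized read count with 1 added; y axis, gene with its CAZy family, by group and falling fold change). Green points are the 3 aspen libraries and blue points the 3 Avicel libraries, with a bar at each mean; green lies to the right for all AA2 peroxidases, and blue to the right in 11 of the 14 cellulose enzyme genes without overlap.

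The oxidoreductases that can provide hydrogen peroxide to the peroxidases rose as well, 3 of 3 against 15.0% of all genes, with a median log2 fold change of 3.35. Of the 3 genes, 2 are from the study's lists for plant substrates, so that a bias toward rises is built in for these. The third, 1429888, is from its clusters of secreted proteins. The copper radical oxidase 1480943 (AA5_1), of the family of glyoxal oxidase, had 26571, 23288 and 11971 normalized read counts on aspen, against 263, 311 and 606 on Avicel (log2 fold change 5.68, SE 0.67, adjusted p = 7.41e-06). This gene overlaps its neighbor 1439737 by 237 bases, whose mean was 38.3 on aspen and 90.7 on Avicel. The AA3_3 oxidoreductase 1368318, of the family of alcohol oxidases, had 41510, 95690 and 95590 normalized read counts on aspen, against 5613, 2396 and 14254 on Avicel (log2 fold change 3.35, SE 0.53, adjusted p = 0.000118). The Avicel libraries of this gene were widely spread, and without Avicel replicate 3 the log2 fold change was 4.26. The AA3_2 oxidoreductase 1429888, of the family of aryl-alcohol and glucose oxidases, differed least, with 9645, 7964 and 6558 normalized read counts on aspen, against 3788, 2798 and 1852 on Avicel (log2 fold change 1.49, SE 0.31, adjusted p = 0.00125). For each of the 3 genes all aspen libraries were above all Avicel libraries, as for 28.6% of all genes.

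Hemicellulose hydrolases moved in both directions. Of 11 genes, 7 were up-regulated on aspen (15.0% of all genes), 2 were down-regulated (10.3% of all genes) and 2 were not called, and the median log2 fold change was 2.45. The 7 genes that rose are all from the study's lists for plant substrates, and the 4 others from its clusters of secreted proteins. The xylanase 1395316 (GH10) stood apart with 13389, 12953 and 10711 normalized read counts on aspen, against 66.0, 37.6 and 42.5 on Avicel (log2 fold change 7.95, SE 0.40, adjusted p = 3.32e-09). The other GH10 xylanase, 1435885, had 9128, 5288 and 11476 normalized read counts on aspen, against 418, 3614 and 634 on Avicel (log2 fold change 2.45, SE 0.74, adjusted p = 0.0134). Its groups did not overlap, but Avicel replicate 2 was far above the other Avicel libraries: without it the log2 fold change was 3.997, and without Avicel replicate 1 it was 2.00 and the call was lost (adjusted p = 0.0534).

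Side-chain and accessory hydrolases of hemicellulose were among those that rose. The GH43 gene 408613, of a family of arabinofuranosidases and xylosidases, had 3611, 2477 and 3554 normalized read counts on aspen, against 227, 155 and 220.2 on Avicel (log2 fold change 3.97, SE 0.52, adjusted p = 2.04e-05). The GH43 gene 1435501 had 7014, 6098 and 6420 normalized read counts on aspen, against 1089, 73.6 and 790.1 on Avicel (log2 fold change 3.29, SE 0.90, adjusted p = 0.00745). Avicel replicate 2 was the low library for this gene, as it was for 1357645 (GH30, a family with xylanases and glucanases), which had 6449, 5762 and 6330 normalized read counts on aspen, against 769.9, 269.8 and 1571 on Avicel (log2 fold change 2.79, SE 0.56, adjusted p = 0.000822). Without Avicel replicate 3 the log2 fold change of 1357645 was 3.55. The arabinofuranosidase 1357629 (GH51) had 12286, 11181 and 13915 normalized read counts on aspen, against 2398, 713 and 3342 on Avicel (log2 fold change 2.50, SE 0.54, adjusted p = 0.00151). In each of these 4 genes all aspen libraries exceeded all Avicel libraries, as was the case for 28.6% of all genes tested. For all but 408613 the spread among replicates lay mainly on the Avicel side.

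The 2 GH12 genes, from a family of endoglucanases and xyloglucanases, went opposite ways. Gene 1358049 had 2950, 1521 and 2601 normalized read counts on aspen, against 766, 289 and 723 on Avicel (log2 fold change 1.96, SE 0.53, adjusted p = 0.00677). By contrast, 1375723 had 5510, 1911 and 4597 normalized read counts on aspen, against 16117, 29521 and 20016 on Avicel (log2 fold change -2.48, SE 0.81, adjusted p = 0.0205). The call of 1375723 was lost without 1 library in several cases: the adjusted p was 0.0568 without Avicel replicate 2, 0.081 without aspen replicate 2 and 0.0515 without aspen replicate 3. The alpha-galactosidase 1431843 (GH27), which acts on side chains of galactomannan, was moderately lower, with 10943, 9481 and 11139 normalized read counts on aspen, against 24255, 15675 and 28794 on Avicel (log2 fold change -1.15, SE 0.25, adjusted p = 0.00177), and its log2 fold change was -0.94 without Avicel replicate 3. The mannanase 1359888 (GH5_7) was not called, with 15260, 9477 and 17563 normalized read counts on aspen, against 28346, 20868 and 34428 on Avicel, although the groups did not overlap (log2 fold change -1.02, SE 0.59, adjusted p = 0.173), but it was called in a fit of the 6 aspen and Avicel libraries alone (log2 fold change -1.01, adjusted p = 0.0187). Also not called was the alpha-glucuronidase 1426831 (GH115), whose libraries overlapped (log2 fold change -0.67, SE 0.43, adjusted p = 0.219).

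Carbohydrate esterases, which remove acetyl, feruloyl or glucuronoyl groups, were divided: 2 of 6 rose (15.0% of all genes), 2 fell (10.3% of all genes) and 2 were not called, with a median log2 fold change of -0.55. This division followed the source of the genes. The 2 that rose are from the study's lists for plant substrates, and the 4 others from its clusters of secreted proteins. Their direction is thus partly set by that choice. The CE1 esterase 1377160, a family with acetylxylan and feruloyl esterases, had 11549, 15901 and 10910 normalized read counts on aspen, against 117, 55.6 and 182 on Avicel (log2 fold change 6.73, SE 0.41, adjusted p = 1.56e-08). The CE4 deacetylase 1433098 had 2965, 3508 and 3321 normalized read counts on aspen, against 491, 415 and 767 on Avicel (log2 fold change 2.52, SE 0.28, adjusted p = 5.5e-06). All aspen libraries exceeded all Avicel libraries in both, as they did for 28.6% of all genes tested. The CE16 acetylesterase 1373375 had 3923, 3222 and 3843 normalized read counts on aspen, against 11720, 5165 and 14655 on Avicel (log2 fold change -1.55, SE 0.37, adjusted p = 0.00316), the aspen libraries being the lower ones. The CBM1-CE15 glucuronoyl esterase 1470260 had 1883, 2558 and 4310 normalized read counts on aspen, against 13197, 19971 and 2423 on Avicel (log2 fold change -2.04, SE 0.60, adjusted p = 0.012); Avicel replicate 3 fell among the aspen libraries, and the call was lost without Avicel replicate 2 (log2 fold change -1.45, adjusted p = 0.0727) and without aspen replicate 1 (adjusted p = 0.0509). A second CE1 gene, CBM1-CE1 1392142, had 6542, 3488 and 8373 normalized read counts on aspen, against 3336, 7970 and 5119 on Avicel, overlapping libraries and a log2 fold change of 0.14 (SE 0.39), whose sign changed under the scaling by library totals (-0.16), without Avicel replicate 1 (-0.12) and without aspen replicate 3 (-0.15). The CBM1-CE16 gene 1439328 was at a log2 fold change of -1.24 (SE 0.60, adjusted p = 0.104) and was not called, although every aspen library was below every Avicel library. It was called in the fit of the 6 aspen and Avicel libraries alone (-1.24, adjusted p = 0.00457) and under the scaling by library totals (-1.53, adjusted p = 0.0497).

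Pectin enzymes were up-regulated in 4 of 6 genes, against 15.0% of all genes, with none down-regulated (10.3% of all genes) and a median log2 fold change of 2.12. All 4 rises are among the 5 pectin genes from the study's lists for plant substrates, so that a bias toward rises is built in. The polygalacturonase 688728 (GH28) had 4272, 4085 and 3821 normalized read counts on aspen, against 327, 305 and 354 on Avicel (log2 fold change 3.60, SE 0.56, adjusted p = 9.31e-05). Replicates agreed closely in both groups. Polygalacturonases 1446047 and 1377553 rose by log2 fold changes of 2.15 (SE 0.25) and 2.13 (SE 0.43), and the rhamnosidase 1434191 (GH78) by 2.11 (SE 0.44), each without overlap between the groups, with aspen above Avicel as for 28.6% of all genes. The pectin methylesterase 1438246 (CE8) had 3437, 3512 and 4051 normalized read counts on aspen, against 1982, 1577 and 1951 on Avicel. All its aspen libraries were above all its Avicel libraries, but the log2 fold change of 0.97 (SE 0.32) was under the limit, and passed it without Avicel replicate 1 (1.02), without Avicel replicate 3 (1.03) or without aspen replicate 1 (1.01). The fourth polygalacturonase, 1370654, had overlapping libraries and a log2 fold change of 0.82 (SE 0.61, adjusted p = 0.285).

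Enzymes of cellulose breakdown were transcribed less on aspen than on Avicel. None of the 14 genes was up-regulated and 10 were down-regulated, against 10.3% of all genes, with a median log2 fold change of -1.79. Together they took 0.285 to 0.544% of the counts of an aspen library and 1.48 to 1.70% of those of an Avicel library. In 11 of the 14 genes every aspen library was below every Avicel library, as was the case for 26.6% of all genes tested. Aspen replicate 2 was the lowest aspen library in all of them but the GH3 gene 1434274. Of the 14 genes, 12 come from the clusters of secreted proteins and 2 from the lists for pine or wheat straw. For such clusters the study reports mean levels on Avicel that mostly exceeded those on the other substrates. The direction of these 12 genes is therefore not independent of the choice of clusters.

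The cellobiohydrolase gene 1389216 (GH7) had 6572, 6187 and 17881 normalized read counts on aspen, against 78526, 49482 and 56958 on Avicel (log2 fold change -2.62, SE 0.76, adjusted p = 0.0103). Aspen replicate 3 was the highest of its group, and without it the log2 fold change was -3.30. The second cellobiohydrolase gene of this family, 1366028, had 8974, 3083 and 9177 normalized read counts on aspen, against 18561, 51172 and 21780 on Avicel (log2 fold change -2.13, SE 0.57, adjusted p = 0.0068). The cellobiohydrolase 1357326 (CBM1-GH6) was the least changed of these exo-acting enzymes, with 39074, 29684 and 53463 normalized read counts on aspen, against 56694, 70159 and 73296 on Avicel. Its groups did not overlap, yet it was not called (log2 fold change -0.74, SE 0.67, adjusted p = 0.382). Among endo-acting enzymes, 1467772 (GH131-CBM1), of a family of broad beta-glucanases, had 13803, 5858 and 12982 normalized read counts on aspen, against 59022, 64499 and 44355 on Avicel (log2 fold change -2.39, SE 0.71, adjusted p = 0.0119), a call lost without aspen replicate 2 (adjusted p = 0.0544). The endoglucanases 1434718 (CBM1-GH5_5) and 1433077 (GH45) were not called, with log2 fold changes of -1.05 (SE 0.49) and -0.17 (SE 0.37), and the libraries of the GH45 gene overlapped. Under the scaling by library totals 1434718 was called, at -1.35 (adjusted p = 0.0424).

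The oxidative enzymes of cellulose breakdown fell too. Cellobiose dehydrogenase 1401955 (AA8-AA3_1) had 13599, 11470 and 23258 normalized read counts on aspen, against 70288, 79081 and 85153 on Avicel (log2 fold change -2.31, SE 0.61, adjusted p = 0.00581). All 3 monooxygenase genes of family AA9 were lower on aspen. AA9-CBM1 1382161 had 15757, 9375 and 15559 normalized read counts on aspen, against 53395, 46918 and 47061 on Avicel (log2 fold change -1.88, SE 0.50, adjusted p = 0.00622). The gene 1428145, also AA9-CBM1, had 19617, 15108 and 28781 normalized read counts on aspen, against 53208, 55586 and 57420 on Avicel (log2 fold change -1.42, SE 0.48, adjusted p = 0.0238), and was not called without aspen replicate 1 (adjusted p = 0.0666) or aspen replicate 2 (adjusted p = 0.092). It overlaps 1048895 by 204 bases, which had a log2 fold change of -1.62 itself. AA9 1466495, which carries no annotated CBM1, was low per length, with a mean of 18.04 ± 6.20 RPKM on aspen and 77.3 ± 33.8 RPKM on Avicel (± SD, n = 3). It had 467, 318 and 656 normalized read counts on aspen, against 1470, 2402 and 1027 on Avicel (log2 fold change -1.79, SE 0.67, adjusted p = 0.0389), and lost the call without any 1 library other than Avicel replicate 3, with adjusted p from 0.0534 to 0.133. A gene annotated only with CBM1, 1472584, had 7309, 2248 and 6186 normalized read counts on aspen, against 16873, 17615 and 18663 on Avicel (log2 fold change -1.78, SE 0.48, adjusted p = 0.00663). The beta-glucosidase family GH3 was mixed in degree: CBM1-GH3 1404940 had 2769, 1379 and 3464 normalized read counts on aspen, against 10709, 11150 and 12086 on Avicel (log2 fold change -2.19, SE 0.61, adjusted p = 0.00803), 1434274 had a log2 fold change of -1.48 (SE 0.42) with overlapping libraries and was not called without Avicel replicate 1 (adjusted p = 0.0585), and 1411666 was not called at -0.36 (SE 0.30).

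In RPKM, the order of abundance among the wall enzymes differed between the media. On aspen the highest means were those of the peroxidases 1468611 and 1431101, the AA3_3 oxidoreductase 1368318 with 1103 ± 444 and the cellobiohydrolase 1357326 with 851 ± 243 RPKM (mean ± SD, n = 3). On Avicel the highest were AA9-CBM1 1428145 with 2057 ± 17.9, GH131-CBM1 1467772 with 1968 ± 424, the cellobiohydrolase 1357326 with 1742 ± 164 and AA9-CBM1 1382161 with 1537 ± 180.5 RPKM. Within both orders the mean ± SD of each gene overlapped that of its neighbor, so that adjacent ranks are not distinguished by these replicates. Hemicellulose hydrolases as a group held 0.218 to 0.286% of the counts of an aspen library and 0.301 to 0.389% of those of an Avicel library. Although 7 of the 11 genes rose, the genes that did not rise were the more abundant ones on Avicel. Pectin enzymes held 0.0586 to 0.0773% of the counts of an aspen library and 0.0212 to 0.0355% of those of an Avicel library. Esterases held 0.0973 to 0.112% of the counts of an aspen library and 0.156 to 0.179% of those of an Avicel library.

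**Figure D3:**
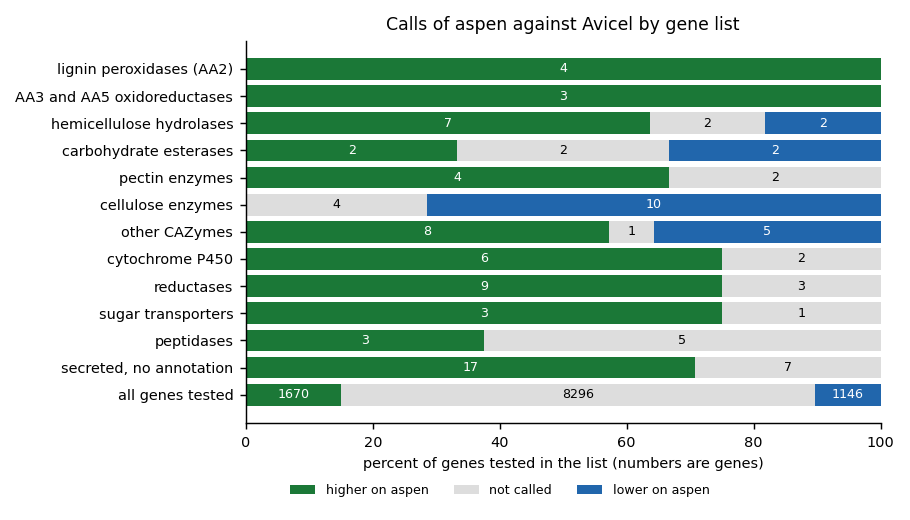
Share of each gene list that was up-regulated on aspen relative to Avicel, not called, or down-regulated (x axis, percent of genes tested; numbers are genes), with all 11112 genes tested in the lowest bar. Cellulose enzymes are the list with no gene higher on aspen and 10 of 14 lower, whereas 15.0% of all genes were higher and 10.3% lower. The lists come from selections that the study made on these same libraries, so the shares are partly set by that choice.

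Intracellular and transport functions annotated in the same tables were mostly higher on aspen or not called, and none of these genes fell. All 24 P450, reductase and transporter genes come from the lists for plant substrates, so that a bias toward rises is built in. Over all genes tested, 15.0% rose and 10.3% fell. Cytochrome P450 monooxygenases were up-regulated in 6 of 8 genes (median log2 fold change 1.32), among them 1435960 (log2 fold change 2.41, SE 0.26, adjusted p = 3.98e-06) and 1369748 (log2 fold change 2.36, SE 0.30, adjusted p = 1.73e-05). Aldo-keto, short-chain and quinone reductases were up-regulated in 9 of 12 genes (median 2.02). The reductase 1435541, of a group that includes flavonol and cinnamoyl-CoA type reductases, had 17154, 18620 and 17906 normalized read counts on aspen, against 69.2, 98.9 and 76.3 on Avicel (log2 fold change 7.75, SE 0.56, adjusted p = 6.56e-08), and the aldo-keto reductase 1370490 had 6186, 9212 and 5022 normalized read counts on aspen, against 269, 186 and 450.1 on Avicel (log2 fold change 4.46, SE 0.46, adjusted p = 2.44e-06). Their aspen libraries were all above their Avicel libraries. Sugar transporters of the major facilitator type rose in 3 of 4 genes, with 1441122 at 2897, 2931 and 3374 normalized read counts on aspen, against 235, 132 and 404 on Avicel (log2 fold change 3.54, SE 0.36, adjusted p = 1.96e-06), while 1428914 had a log2 fold change of 0.00 (SE 0.30).

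Peptidases were up-regulated in 3 of 8 genes, against 15.0% of all genes, with none down-regulated (10.3% of all genes). All 3 are among the 6 peptidase genes from the study's lists for plant substrates, so that a bias toward rises is built in. The aspartic peptidase 1370947 had 12397, 17142 and 16099 normalized read counts on aspen, against 1752, 1134 and 2152 on Avicel (log2 fold change 3.15, SE 0.30, adjusted p = 9.88e-07), and 1438837 had 60502, 107252 and 88867 normalized read counts on aspen, against 4041, 1164 and 5559 on Avicel (log2 fold change 4.54, SE 0.66, adjusted p = 5.73e-05). Avicel replicate 2 was the lowest Avicel library in both. Among 24 secreted proteins without annotation, 17 rose (15.0% of all genes) and 7 were not called, with a median log2 fold change of 2.15. Of the 24, 22 come from the same lists for plant substrates, and all 17 rises are among these 22, so that the same bias applies. The largest rise belonged to 1468135, with 24443, 19994 and 23500 normalized read counts on aspen, against 204, 168 and 125 on Avicel (log2 fold change 7.07, SE 0.64, adjusted p = 5.94e-07), a gene that overlaps 448186 by 69 bases. The neighbor had a log2 fold change of 6.92. The secreted protein 1425076 had 56391, 81102 and 55598 normalized read counts on aspen, against 720.0, 708 and 916 on Avicel (log2 fold change 6.33, SE 0.34, adjusted p = 3.77e-09), with no overlap of the groups.

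Other CAZymes, a mixed list in which most families are not known for plant wall degradation, were divided between 8 rises (15.0% of all genes) and 5 falls (10.3% of all genes) in 14 genes. This division followed the source of the genes. All 8 rises are among the 9 genes from the study's lists for plant substrates, and the 5 falls are the 5 genes from its clusters of secreted proteins. The direction is thus partly set by that choice. The rises were small, between 1.14 and 1.81 log2 units, and included the expansin-like gene 316489 (log2 fold change 1.81, SE 0.26, adjusted p = 5.54e-05), the GH16 glucanase 1445175 (log2 fold change 1.61, SE 0.36, adjusted p = 0.00175) and the glucoamylase 1507511 (GH15, log2 fold change 1.14, SE 0.34, adjusted p = 0.0119). The falls were of similar size and included the mannosidases 1369367 (GH47, log2 fold change -1.79, SE 0.43, adjusted p = 0.00317) and 1373467 (GH92, log2 fold change -1.64, SE 0.39, adjusted p = 0.00292) and the lyase 1466845 (PL8_4, log2 fold change -1.91, SE 0.23, adjusted p = 1.18e-05). For 1369367 the values were 11841, 13474 and 15848 normalized read counts on aspen, against 55754, 21572 and 62083 on Avicel, and Avicel replicate 2 was again the library nearest to aspen. Without aspen replicate 2 the number of falls in this list was 3, and under the scaling by library totals the number of rises was 5.

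The 10 strongest rises include genes given above: AA2 1431101, 1468611 and 1464049, GH10 1395316, the reductase 1435541 and the secreted protein 1468135. Gene 701883, which has no annotation in the sources used here, had 7643, 9638 and 6056 normalized read counts on aspen, against 6.44, 4.91 and 7.73 on Avicel (log2 fold change 10.22, SE 0.72, adjusted p = 5.15e-08). It overlaps 702079 by 522 bases. That gene had a log2 fold change of 4.85. Gene 1448556 had 37386, 70132 and 53827 normalized read counts on aspen, against 204, 142 and 269 on Avicel (log2 fold change 8.01, SE 0.42, adjusted p = 3.42e-09), and 1435353 had 2317, 2851 and 2027 normalized read counts on aspen, against 13.7, 10.6 and 5.80 on Avicel (log2 fold change 7.84, SE 0.43, adjusted p = 5.07e-09). The homogentisate dioxygenase-like gene 1442642, of a class of enzymes that open aromatic rings, had 12842, 18619 and 14963 normalized read counts on aspen, against 121, 104 and 128 on Avicel (log2 fold change 7.01, SE 0.78, adjusted p = 4.85e-06). In all of these the groups were far apart. The 10 genes were picked for a large rise without overlap between the groups, so that this separation is part of the choice.

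**Figure D4:**
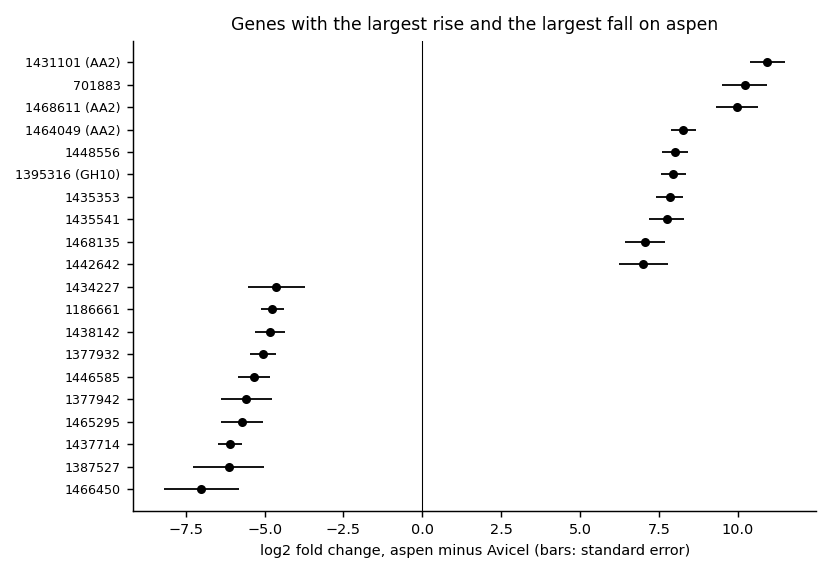
Log2 fold change (x axis, aspen minus Avicel) of the 10 strongest rises and the 10 strongest falls among genes called, without overlap between the groups and with a mean normalized read count of at least 100 (y axis, gene with its CAZy family where it has one). Points are edgeR estimates and bars are standard errors; the rises run from 7.01 to 10.94 and the falls from -7.00 to -4.62.

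The 10 genes that fell most carry no annotation in the sources used here. Gene 1466450 had 35.4, 64.5 and 31.3 normalized read counts on aspen, against 5557, 4551 and 6423 on Avicel (log2 fold change -7.00, SE 1.18, adjusted p = 0.000201). On maltose it was far higher than on either substrate, with a mean of 154969 normalized read counts. A similar order held for 1387527, with 6.43, 14.8 and 6.71 normalized read counts on aspen, against 777, 466 and 726 on Avicel (log2 fold change -6.14, SE 1.14, adjusted p = 0.000454) and a mean of 9788 normalized read counts on maltose, and for 1434227, with 236, 337 and 154 normalized read counts on aspen, against 4655, 6987 and 5979 on Avicel (log2 fold change -4.62, SE 0.89, adjusted p = 0.000636) and a mean of 169277 normalized read counts on maltose. These 3 genes were thus highest on the simple sugar, intermediate on Avicel and lowest on aspen. By contrast, 1437714 had 151, 71.9 and 62.6 normalized read counts on aspen, against 6110, 6687 and 6374 on Avicel (log2 fold change -6.09, SE 0.39, adjusted p = 2.13e-08) and stood at a mean of 85.4 normalized read counts on maltose, and 1446585 had 742, 749 and 595 normalized read counts on aspen, against 15075, 27513 and 40213 on Avicel (log2 fold change -5.34, SE 0.51, adjusted p = 1.08e-06) with a mean of 608 normalized read counts on maltose. For both, Avicel was the high medium. For 1377942 the Avicel libraries ranged from 83.7 to 827, and the log2 fold change of -5.58 (SE 0.80) was -4.48 without Avicel replicate 2 and -6.17 without aspen replicate 2; that of 1465295, -5.71 (SE 0.67), was -5.10 without Avicel replicate 2.

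Among the genes with the highest normalized read counts, too, some differed by medium. These counts are not corrected for length and so do not rank transcripts by abundance. The 5 genes with the highest normalized read counts among those that rose include 1404088, with 458660, 425952 and 419261 normalized read counts on aspen, against 18313, 12104 and 36524 on Avicel (log2 fold change 4.25, SE 0.37, adjusted p = 4.09e-07), and 1463623, with 467964, 437751 and 411333 normalized read counts on aspen, against 69763, 72396 and 77331 on Avicel (log2 fold change 2.56, SE 0.23, adjusted p = 5.59e-07). Gene 1404088 overlaps 919404 by 274 bases. The weakest of the 5, 1430093, had a log2 fold change of 1.04 (SE 0.26) that was between 0.90 and 0.96 without Avicel replicate 1 or 2 or aspen replicate 2 or 3, and 0.76 under the scaling by library totals. Among the 5 highest genes that fell, 1464925 had 131469, 77829 and 147948 normalized read counts on aspen, against 816229, 522357 and 806376 on Avicel (log2 fold change -2.62, SE 0.47, adjusted p = 0.000318), and 1370248 had 14018, 9249 and 10166 normalized read counts on aspen, against 163444, 191371 and 173189 on Avicel (log2 fold change -4.01, SE 0.33, adjusted p = 2.56e-07). For 1442243 the log2 fold change was -3.88 (SE 0.49) and was -3.15 without Avicel replicate 3, the highest library. None of these 10 has an annotation in the sources used here.

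Pine and wheat straw were set directly against aspen in the same fit, since a gene high on aspen relative to Avicel may be high on every plant substrate. Of all genes tested, 7.60% were higher on aspen than on pine and 9.39% lower, and against wheat straw 6.51% were higher and 4.13% lower. The AA2 peroxidases fell into pairs. The adjacent genes 1431101 and 1464049 were higher on aspen than on pine by log2 fold changes of 7.11 and 6.90 (edgeR adjusted p = 1.34e-07 and 1.39e-08) and higher than on wheat straw by 6.51 and 3.14. For 1468611 and 1436321 the log2 fold changes against pine were 0.65 (SE 0.45) and -0.29 (SE 0.53), neither of them called. Against wheat straw 1468611 was higher by 1.48 and 1436321 was at -0.61 (SE 0.53), not called. In the means, 1431101 had 69945 normalized read counts on aspen, 506 on pine, 757 on wheat straw, 34.9 on Avicel and 34.1 on maltose, whereas 1468611 had 63074 normalized read counts on aspen, 40177 on pine, 22231 on wheat straw, 61.6 on Avicel and 50.9 on maltose.

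**Figure D5:**
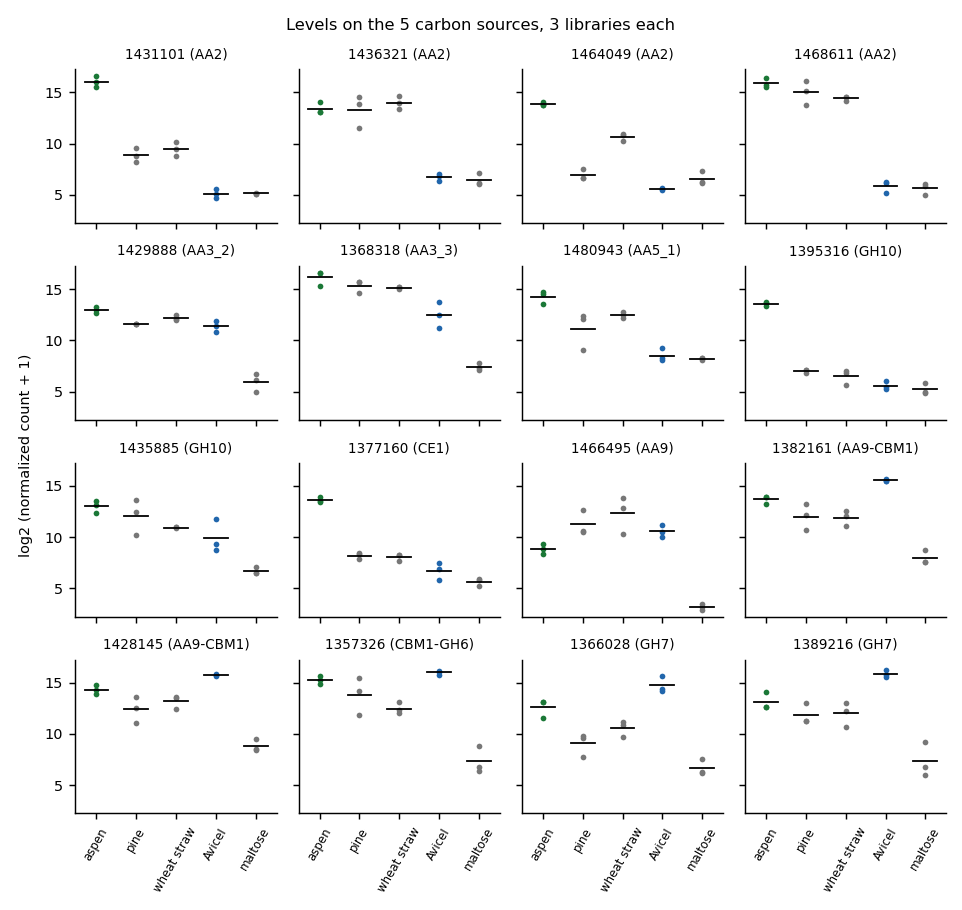
Levels of 16 wall enzyme genes on 5 carbon sources (y axis, log2 of the normalized read count with 1 added; x axis, medium). Points are the 3 libraries of a medium, green for aspen, blue for Avicel and grey for the others, and bars are means; 1431101, 1464049, 1395316 and 1377160 are high on aspen, whereas the 2 GH7 genes are highest on Avicel and higher on aspen than on maltose.

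The GH10 xylanase 1395316 and the CE1 esterase 1377160 shared the pattern of the adjacent peroxidases, with log2 fold changes of 6.60 and 5.43 against pine and 6.995 and 5.54 against wheat straw. Both peroxidases and these genes are members of a cluster of 9 that the study selected as high on aspen alone, so that their direction against the other media is a description. All 9 rose relative to Avicel, against 15.0% of all genes, with a median log2 fold change of 7.01 against -0.03 over all genes tested. The study's choice also left out clusters high on Avicel, so that this direction is partly set as well. The other GH10 gene, 1435885, did not pass the test against either substrate, with log2 fold changes of 0.39 against pine and 2.11 against wheat straw. Most hemicellulose and pectin genes were not called against the other plant substrates. Over all 11 hemicellulose genes, 1395316 included, 2 were higher on aspen than on pine and 4 than on wheat straw. Over the 6 pectin genes, 0 were higher than on pine, 1 was lower than on pine and 1 was higher than on wheat straw. These counts also take in genes that did not rise relative to Avicel. The CE4 deacetylase 1433098 was lower on aspen than on pine, by a log2 fold change of -2.56.

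Cellulose enzymes, lower on aspen than on Avicel, were in several cases higher on aspen than on the other plant substrates. Of the 14 genes, 6 were higher on aspen than on pine and 2 lower, and 5 were higher than on wheat straw and 1 lower. GH7 1366028 had 7078 normalized read counts on aspen, 636 on pine, 1704 on wheat straw, 30504 on Avicel and 111 on maltose, with log2 fold changes of 3.47 against pine and 2.03 against wheat straw. The endoglucanase 1434718 (CBM1-GH5_5), not called against Avicel, was higher on aspen than on pine by 3.63 and than on wheat straw by 3.58. AA9 1466495 went the other way, at -2.75 against pine and -4.01 against wheat straw, as did the GH3 gene 1434274 against pine, at -2.28. The study listed 1466495 for pine and wheat straw and 1434274 for pine, and neither for aspen. Their direction against these substrates is thus partly set by that choice. The fits share the aspen libraries, so these contrasts are not independent of the comparison with Avicel.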

How the data were processed

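RNA was sequenced as paired reads from each culture. Per the methods of the study, the authors trimmed the reads, aligned them with TopHat2, counted them with HTSeq and normalized with DESeq2, whereas the submitters' processing notes name DESeq 1.5. The authors deposited raw counts for 12690 gene models, of which 773 had no reads at all, and RPKM, which were recomputed from counts, mappable length and library total to within 5.3e-15 and used only to compare levels between genes. All 36 columns of values were matched to a sample. How multi-mapped reads and strand were treated is not given in the sources used here.

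Counts were tested with edgeR 4.0.16 (limma 3.58.1, R 4.3.3): TMM, filterByExpr, glmQLFit and glmQLFTest in one fit of 15 libraries (5 carbon sources), adjusted by Benjamini-Hochberg over 11112 genes. Calls required an adjusted p below 0.05 together with a log2 fold change beyond 1 in either direction. The SE is the absolute log2 fold change divided by the square root of F. Normalized read counts use DESeq size factors over 18 libraries, with 1 added on log2 scales. On counts simulated from the libraries for this contrast (11056 genes), 94% of 100 genes changed by 1.5 log2 units and 100% of 100 changed by 2.5 were recovered, with 6 false calls. The changed genes were drawn only from those above a minimum mean count. Their spread followed the trend over all genes and not each gene's own spread, and far fewer genes were changed than were called in the data. Recovery can therefore be lower for genes with low counts or widely spread replicates.

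Replicates differed by more than sampling noise (chi-square per degree of freedom from 47.9 to 205 within the groups), so p-values rest on the spread between libraries. Gene lists were built from the CAZy and KOG annotation of 330 genes in the supplementary tables, all with counts. Locus order came from the public annotation of the Pycco1 assembly, which lists 13016 loci and matched 12680 gene models. Genes named are the AA2, AA3, AA5, esterase, hemicellulose, pectin and cellulose genes of these tables. Added were the 10 strongest rises and 10 strongest falls among called genes (no overlap between groups, mean normalized read count of at least 100). The rule also named the 5 genes with the highest mean normalized read count among those called in each direction. Members of the other lists are examples named after their values were seen. Members, lists and tests were chosen with earlier results of these data known. Of 70 genes named by the rule, 15 overlap a neighboring locus. Alternatives were RLE factors, DESeq2 1.42.0, library totals alone, no filter, other sets of libraries, a replicate block, Bonferroni adjustment, no fold limit and leaving out each library. Promoter motifs and lists by product name were not analysed here. Plots were made with matplotlib 3.10.9 in Python 3.11.15 (numpy 2.4.6, pandas 2.3.3).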

Additional observations from a re-analysis of the deposited data

Results flagged for a closer look

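The AA9 monooxygenase 1466495 was on opposite sides of Avicel on 2 plant substrates: it was lower on aspen and higher on wheat straw, and the direct difference, aspen minus wheat straw, was -4.01 on the log2 scale (edgeR, adjusted over all genes tested). Its fall on aspen relative to Avicel was lost without any 1 library but Avicel replicate 3. The study listed this gene for pine and wheat straw and not for aspen, so that its order among the plant substrates is partly set by that choice.

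The xylan-galactomannan libraries, which enter no comparison above, also held AA2 transcripts, and for each of the 4 genes all 3 libraries were above all Avicel libraries. The share of all genes with this order was not computed, so whether the 4 genes stand out in this respect is not known. The mean normalized read count there was 1047 for 1431101, 1146 for 1464049, 5656 for 1436321 and 20478 for 1468611. The description of 1 of these 3 libraries names wheat straw, so its medium is uncertain. Groups of 3 libraries are too small for the test of single outlying samples, which was not run.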

How the results depend on the processing

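Of the 70 genes named by the rule, 60 were called, and 9 of these lost the call under at least 1 alternative other than Bonferroni adjustment, 32 with it included. RLE factors, no filter on low counts and the fit of all 18 libraries changed no call among them, and DESeq2 lost 1 (1466495). Library totals alone, chosen after seeing the data, gave 1158 higher and 2084 lower on aspen, 5 higher among other CAZymes, and turned CBM1-CE1 1392142 to -0.16. The fit of the 6 aspen and Avicel libraries alone added calls of 1359888 and 1439328, so that 3 hemicellulose hydrolases and 3 esterases were lower on aspen. Library totals also gave 3 lower esterases, and 11 lower cellulose enzymes. Leaving out 1 library gave between 1563 and 1813 genes higher and between 1025 and 1284 lower on aspen. In the lists, with 1 library left out, the counts of lower genes ran from 1 to 2 for hemicellulose hydrolases (1 without Avicel replicate 2 or 3 or aspen replicate 2 or 3), from 1 to 2 for esterases (1 without Avicel replicate 2 or aspen replicate 1) and from 3 to 5 for other CAZymes (3 without aspen replicate 2), and 1392142 ran from -0.15 to 0.50. For cellulose enzymes the count of lower genes ran from 7, without aspen replicate 2, to 10, without Avicel replicate 3.

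The adjustment and the fold limit set the size of the counts. With Bonferroni adjustment, 536 genes were higher and 259 lower on aspen. The counts of higher genes were then 1 for AA3 and AA5 oxidoreductases, 2 for hemicellulose hydrolases, 1 for pectin enzymes, 2 for other CAZymes, 3 for P450, 1 for sugar transporters and 11 for secreted proteins without annotation, and those of lower genes were 0 for hemicellulose hydrolases, 0 for esterases, 0 for cellulose enzymes and 1 for other CAZymes. With Benjamini-Hochberg adjustment, the count of lower genes was 10 for cellulose enzymes. Without the fold limit, 2542 genes were higher and 2506 lower.

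Aspen and Avicel libraries sharing a replicate number did not deviate together, with r of -0.13, 0.04 and -0.08 between their departures from the group mean. The numbers were therefore not taken as pairs. No library correlated best with the library of the same number in the other group. A fit with the replicate block called 1660 genes higher and 1126 lower on aspen, kept 2739 of 2816 calls and changed no call among the named genes.

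With 3 libraries a group, differences near the fold limit are the uncertain ones, and a missing call does not show that a gene was equal. Lists were drawn from tables made on these libraries. Transcripts were measured on 1 day, and proteins were not analysed here.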

Other observations

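Among the annotated genes, those assigned to phenol monooxygenase and to ring-opening dioxygenase activities were looked at after their values had been seen. Gene 1433039, a phenol monooxygenase by annotation, had 4820, 6450 and 3924 normalized read counts on aspen, against 106, 67.0 and 69.5 on Avicel (log2 fold change 5.94, SE 0.37). The other genes with this annotation differed less: 1463192 had a log2 fold change of 3.31 (SE 0.45) and 1433057 of 1.19 (SE 0.35). Gene 1387624, annotated as a hydroxyquinol dioxygenase, had 6824, 11598 and 8921 on aspen, against 242, 295 and 229 on Avicel (log2 fold change 5.13, SE 0.32). All of these were called, as were 15.0% of all genes tested in this direction. They stand in the study's lists for plant substrates, so that their direction is partly set by that choice, and no statement on such genes in general is made.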
